A study of Homo sapiens with 12 samples.

Results

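Integrins are the transmembrane receptors by which epithelial cells hold to their basement membrane, and each receptor is a pair of an alpha and a beta subunit. The genes ITGA2, ITGA3, ITGA5, ITGA6, ITGAV, ITGB1, ITGB4, ITGB5, ITGB6 and ITGB8, 10 in all, were taken by name, with every array probe set annotated with that symbol alone. That gave 28 of the 54675 probe sets on the array, for 9 of the 10 genes, because all 4 probe sets of ITGB6 also carried the symbol LINC02478. Of these, 16 probe sets of 8 genes lay above a log2 value of 4 on at least 3 of the 12 arrays and were tested; ITGA2 did not pass. The same filter kept 19521 of the 41091 probe sets with 1 symbol and 10665 of 19775 genes.

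The alpha subunit largely sets which matrix protein a receptor binds, and the beta tail couples it to the cytoskeleton through talin, kindlin and focal adhesion kinase. ITGA3 and ITGA6 encode laminin-binding chains, ITGA5 the fibronectin-binding chain and ITGA2 a collagen-binding chain, all of which can pair with the beta-1 chain of ITGB1. The beta-4 chain of ITGB4 pairs with the alpha-6 chain alone and anchors hemidesmosomes to keratin filaments. The alpha-V chain of ITGAV pairs with the beta-1, beta-5, beta-6 or beta-8 chain, among others, and alpha-V beta-6 and alpha-V beta-8 bind latent TGF-beta.

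The cells were HK-2, a single immortalized line derived from human proximal tubule. The groups were cells given a low dose of Kbr for 24 h, their vehicle controls at 24 h, cells given the same for 48 h, and their vehicle controls at 48 h, with 3 biological replicates in each. All groups shared a DMEM and Ham's F12 medium with epidermal growth factor, hydrocortisone, insulin, transferrin and selenite, and were treated near confluence. Neither the concentration of Kbr nor its full name stands in the labels.

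The deposited values, on a log2 scale made with GCRMA, had a median of 2.91 to 2.99 on every array. For ACTB, the 3′ minus the 5′ control probe set, which rises as RNA breaks down, was 0.748 to 0.975 and 0.779 to 1.07 in Kbr cells at 24 and 48 h, against 0.674 to 0.992 and 0.697 to 1.04 in controls. The ranges overlapped, but by replicate number Kbr was above its control in 2 of 3 pairs at 24 h and in 3 of 3 at 48 h. All 8 epithelial markers passed the filter, and 2 were lower in Kbr cells at 24 h (CDH1 and KRT19, by 1.75 and 0.85 on the log2 scale) and 4 at 48 h (CDH1, KRT19, CDH2 and EPCAM, by 1.49, 0.96, 0.91 and 0.41). With the replicate number as a block, 6 of 8 were lower at each time and 1 was higher at 48 h. Over all tested genes, 3.25% were called lower at 24 h and 20.8% at 48 h. With the block these shares were 14% and 28.8%, and 24.4% and 57.5% were called in either direction. The same shares stand beside the counts of the other marker lists below. The summed level of the epithelial list was 38351 to 45205 and 31879 to 40309 in Kbr cells at 24 and 48 h, against 46116 to 54725 and 39415 to 48376 in controls. That list also held CDH2 and VIM. VIM had the highest value of the list, 14.5, so it weighs heavily in the sum, which is no plain measure of epithelial identity. Of 11 proximal tubule markers with a probe set only PAX8 passed the filter. LRP2, CUBN, SLC34A1 and AQP1, which mark that segment's brush border and transport, did not. PAX8 changed by 0.53 at 24 h and 0.40 at 48 h, not called in the main fit but called higher at both times with the block. The summed level of the proximal tubule list was 2399 to 2771 in Kbr cells against 1711 to 2008 in controls at 24 h. At 48 h that sum was 2074 to 3445 in Kbr cells against 1622 to 2446 in controls. Of 9 distal nephron markers with a probe set only SCNN1A passed, and it was lower by 1.22 at 48 h. Endothelial and leukocyte markers had 1 gene each above the filter, CLDN5 and ITGAL, whose highest values were 4.25 and 4.13. Of 9 fibroblast markers, 3 passed the filter and the rest did not. These 3 (COL1A1, DCN and LUM) were lower in Kbr cells at 48 h, by 2.06, 1.69 and 1.62 on the log2 scale, and the summed level of the whole list was 1522 to 2180 in Kbr cells against 5371 to 5658 in controls at 48 h. At 24 h COL1A1 and DCN were lower, by 1.30 and 0.73, and the summed level was 3659 to 5089 in Kbr cells against 5695 to 8119 in controls. The part of these markers and of the ACTB gap in the results below was not tested. Fewer cells carrying a transcript and less transcript per cell cannot be told apart in such bulk samples.

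At 24 h, 2 of the 8 tested integrin genes, ITGA6 and ITGB4, were lower in Kbr cells than in controls of the same time (limma, adjusted p under 0.05), beside 5.74% of all tested genes called in either direction and 3.25% called lower. At 48 h, 5 of 8 were lower (ITGA6, ITGAV, ITGB1, ITGB4 and ITGB8), beside 42.8% called in either direction and 20.8% called lower. No member was called higher at either time, while 22% of all genes were called higher at 48 h. The median log2 change of the 8 genes was -0.31 at 24 h and -0.59 at 48 h, beside -0.016 and -0.0038 over all genes. By replicate number, Kbr was below its control in 24 of 24 gene-by-pair differences at 24 h and in 21 of 24 at 48 h. These are 8 genes on the same 3 pairs of arrays at each time, so they are not 24 replicates. The share of such differences over all genes was not counted. All 8 genes were lower in all 3 pairs at 24 h and 6 of 8 at 48 h, where 35.7% and 36.6% of all genes were.

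The replicate numbers tie arrays of the 4 groups together, and taking the number as a block changed several calls. It gave 4 of 8 genes lower at 24 h, ITGA3 and ITGAV being added, where 24.4% of all genes were then called and 14% called lower. At 48 h it gave 6 of 8 lower, ITGA3 being added, beside 57.5% called and 28.8% called lower. The 3 Kbr arrays did not overlap the 3 controls for 5 of 8 genes at 24 h, beside 31.8% of all genes, and for 5 of 8 at 48 h, beside 50.9%, so the second share is near that of the array as a whole.

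**Figure D1:**
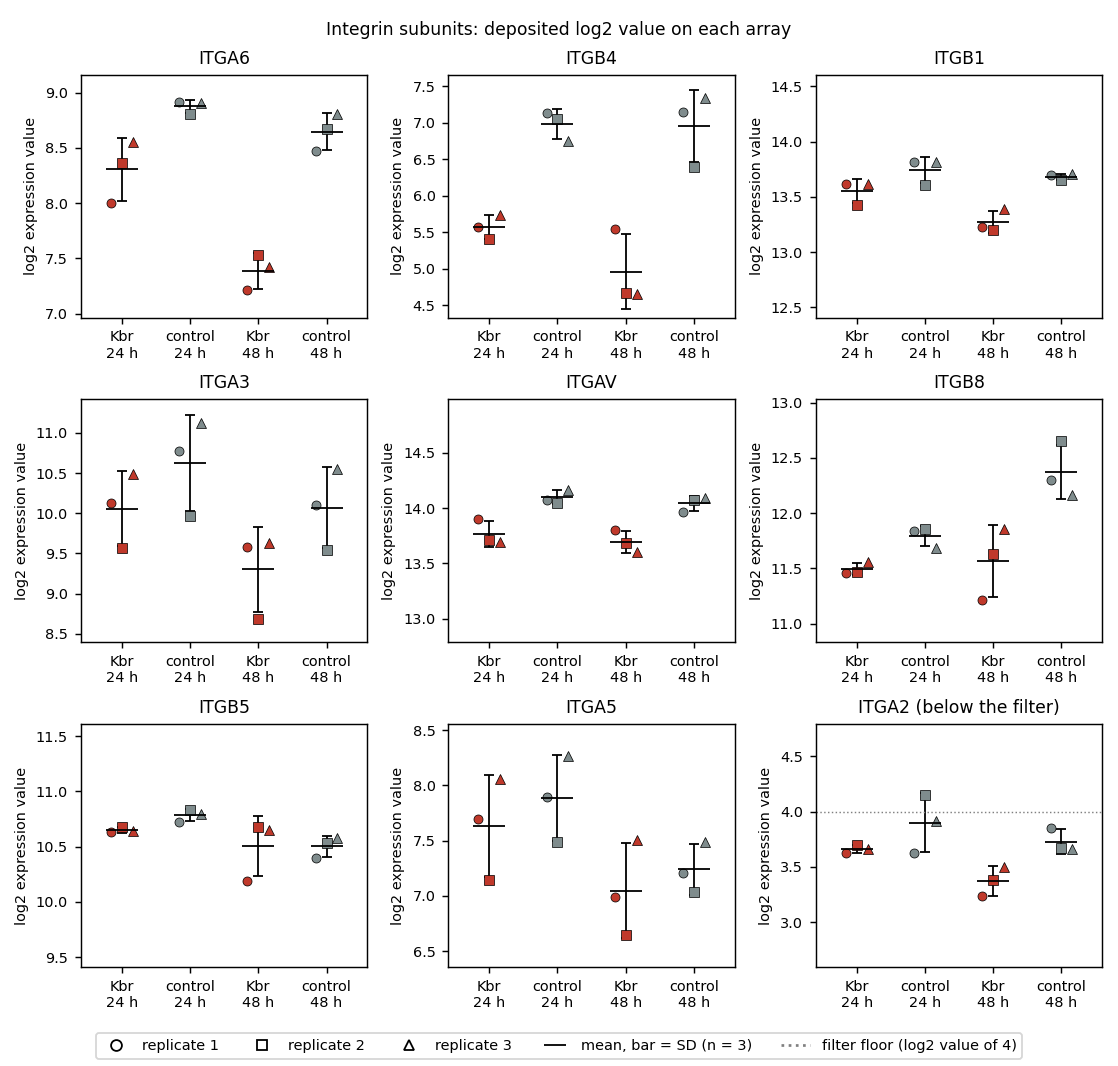
Deposited log2 values of the 8 tested integrin genes and of ITGA2 on each of the 12 arrays, 1 panel per gene, with Kbr left of control at each time; points are replicates, and lines and bars are the group mean and SD (n = 3). At 48 h the Kbr points lie below all controls for ITGA6, ITGAV, ITGB1, ITGB4 and ITGB8, while those of ITGB5 and ITGA5 overlap the controls.

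Among the laminin receptor chains, ITGB4 had the largest change of the 8 genes. ITGB4, on chromosome 17 (75721459 to 75757818, GRCh38.p14), read 5.57, 5.41 and 5.74 in Kbr cells at 24 h, against 7.14, 7.04 and 6.75 in controls. At 48 h ITGB4 read 5.55, 4.68 and 4.65 in Kbr cells, against 7.14, 6.40 and 7.34 in controls. All 6 Kbr arrays were below all 6 control arrays. The fall was 1.40 on the log2 scale at 24 h (SE 0.27, adjusted p = 0.0185), or 2.65-fold, and 2.00 at 48 h (adjusted p = 0.00034), or 4.0-fold. Its second probe set above the filter, 204989_s_at, was lower by 2.29 at 48 h (adjusted p = 0.00868), but its Kbr mean lay below the floor of 4, so the size of that fall is uncertain. At 24 h the 204989_s_at change was -1.68 (adjusted p = 0.121, or 0.008 with the replicate block). This probe set was above 4 on 5 arrays, all of them controls, so it passed the filter only through the cells where it was high. Its p-values are therefore no separate support for the fall of ITGB4.

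ITGA6, the partner chain of ITGB4, lies on chromosome 2 (172427336 to 172506459). In Kbr cells at 24 h its probe set 215177_s_at read 8.0, 8.36 and 8.55, against 8.91, 8.81 and 8.90 in controls. At 48 h it read 7.21, 7.53 and 7.42 in Kbr cells, against 8.47, 8.67 and 8.80 in controls. The groups did not overlap at either time, and the Kbr arrays were lower at 48 h than at 24 h. ITGA6 fell by 0.57 at 24 h (SE 0.15, adjusted p = 0.0483; 1.49-fold) and by 1.26 at 48 h (SE 0.15, adjusted p = 0.000155; 2.39-fold). The second probe set of ITGA6, 201656_at, read 7.43, 7.52 and 7.45 in Kbr cells at 48 h, against 8.31, 8.47 and 8.56 in controls. This set was lower by 0.41 at 24 h (adjusted p = 0.0478 over probe sets) and by 0.97 at 48 h (adjusted p = 0.000101), so both ITGA6 probe sets were lower at 48 h. Over probe sets, 215177_s_at missed the threshold at 24 h (adjusted p = 0.0618).

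The 24 h calls of these laminin receptor chains rested on few arrays. ITGB4 was called in 7 of 12 fits that each left out an array; it was lost without any Kbr replicate of 24 h (adjusted p up to 0.073) and without 24 h control replicate 1 or 2 (up to 0.0834). ITGA6 was called at 24 h in 2 of the 12, those without Kbr 48 h replicate 1 or control 48 h replicate 1, and its adjusted p reached 0.155 without 24 h control replicate 1. Both were called at 48 h in all 12.

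ITGA3, the other laminin-binding alpha chain (chromosome 17, 50056110 to 50090481), depended on the pairing. It read 10.12, 9.56 and 10.49 in Kbr cells at 24 h, against 10.78, 9.96 and 11.13 in controls, and 9.58, 8.69 and 9.64 in Kbr cells at 48 h, against 10.10, 9.54 and 10.55 in controls. Replicate 2 was the lowest of each group, and each Kbr array was below the control of its own number although the groups overlapped. The change was -0.56 at 24 h (adjusted p = 0.395) and -0.76 at 48 h (95% interval -1.59 to 0.064, adjusted p = 0.124). With the replicate block the adjusted p was 0.00411 at 24 h and 0.000162 at 48 h.

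**Figure D2:**
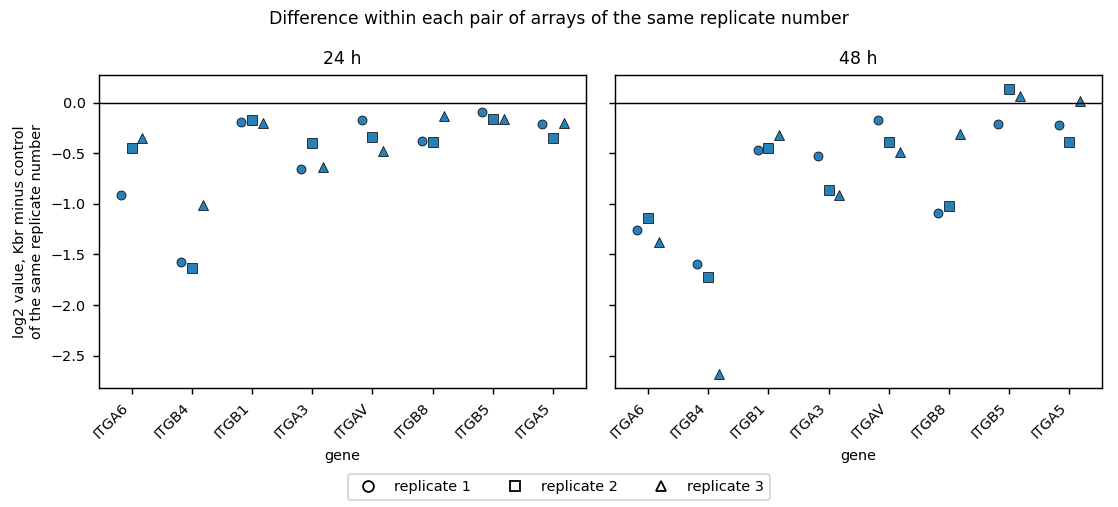
Log2 change of Kbr against control of the same replicate number, 1 point per number and gene, at 24 and 48 h; a value below 0 means lower in Kbr cells. All 24 points at 24 h and 21 of 24 at 48 h lie below 0.

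ITGB1 encodes the beta-1 chain shared by many alpha chains and lies on chromosome 10 (32900318 to 32958230). It read 13.62, 13.43 and 13.61 in Kbr cells at 24 h, against 13.81, 13.60 and 13.81 in controls. At 48 h it read 13.22, 13.20 and 13.39 in Kbr cells, against 13.69, 13.65 and 13.70 in controls. The groups overlapped at 24 h and were apart at 48 h, where ITGB1 fell by 0.41 (SE 0.096, adjusted p = 0.00585; 1.33-fold). Its 24 h change of -0.19 missed the threshold (adjusted p = 0.258). Both other ITGB1 probe sets above the filter were also lower at 48 h, 1553678_a_at by 0.48 (adjusted p = 0.0194) and 1553530_a_at by 0.44 (adjusted p = 0.0471). At 24 h 1553678_a_at changed by -0.28 (adjusted p = 0.281, or 0.0214 with the replicate block). For 1553530_a_at the 24 h change was -0.25 (adjusted p = 0.394, or 0.0363 with the block). The 4 remaining probe sets of ITGB1 lay below the floor, and averaged with them the 48 h change was -0.19 (adjusted p = 0.0525).

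The alpha-V chain and the ITGB1 and ITGB8 partner chains were lower at 48 h by their main probe set, and the results for ITGB8 and ITGB5 depended on the probe set. ITGAV, on chromosome 2 (186590056 to 186680901), read 13.91, 13.71 and 13.69 in Kbr cells at 24 h, against 14.08, 14.05 and 14.17 in controls. At 48 h ITGAV read 13.80, 13.69 and 13.60 in Kbr cells, against 13.97, 14.08 and 14.09 in controls. The groups did not overlap at either time. ITGAV fell by 0.35 at 48 h (SE 0.093, adjusted p = 0.0119; 1.27-fold). Its 24 h change was -0.33 (adjusted p = 0.0615, or 0.0239 with the replicate block).

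ITGB8, the beta chain of a receptor for latent TGF-beta, lies on chromosome 7 (20329766 to 20415754). It read 11.46, 11.47 and 11.55 in Kbr cells at 24 h, against 11.84, 11.86 and 11.69 in controls. At 48 h it read 11.21, 11.63 and 11.86 in Kbr cells, against 12.30, 12.65 and 12.17 in controls. Controls were higher at 48 h than at 24 h, whereas Kbr cells spanned their 24 h level. The 48 h difference was -0.80 (SE 0.16, adjusted p = 0.00287; 1.75-fold lower), and that at 24 h was -0.30 (adjusted p = 0.29). The 2 weaker probe sets above the filter did not follow: 205816_at changed by 0.18 and 211488_s_at by -0.17 at 48 h, neither past the test. The mean of all ITGB8 probe sets gave -0.22 at 48 h (adjusted p = 0.307).

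ITGB5, a beta chain of the vitronectin receptor, lies on chromosome 3 (124761948 to 124901418), and its probe sets disagreed. The probe set 201125_s_at read 10.63, 10.68 and 10.64 in Kbr cells at 24 h, against 10.73, 10.83 and 10.80 in controls, without overlap. At 48 h it read 10.19, 10.68 and 10.65 in Kbr cells at 48 h, against 10.40, 10.54 and 10.58 in controls. Its change was 0.00 at 48 h (95% interval -0.271 to 0.273, adjusted p = 0.995) and -0.14 at 24 h (adjusted p = 0.55). The probe set 201124_at read 5.72, 5.87 and 5.83 in Kbr cells at 48 h, against 6.78, 7.49 and 7.09 in controls. That set was lower by 1.32 (adjusted p = 0.000724), with no overlap. A further one, 214020_x_at, changed by 0.08. The mean of the ITGB5 probe sets was lower by 0.30 at 48 h (adjusted p = 0.0302).

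ITGA5, the fibronectin-binding chain, lies on chromosome 12 (54395261 to 54419266). It read 7.69, 7.14 and 8.06 in Kbr cells at 24 h, against 7.90, 7.49 and 8.26 in controls, and 6.99, 6.65 and 7.50 in Kbr cells at 48 h, against 7.21, 7.03 and 7.48 in controls. The groups overlapped at both times. Its change was -0.25 at 24 h (adjusted p = 0.644) and -0.19 at 48 h (95% interval -0.81 to 0.426, adjusted p = 0.611). ITGA2 lay near the floor: its better probe set, 227314_at, read 3.23 to 3.50 in Kbr cells and 3.66 to 3.86 in controls at 48 h, and was not tested.

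**Figure D3:**
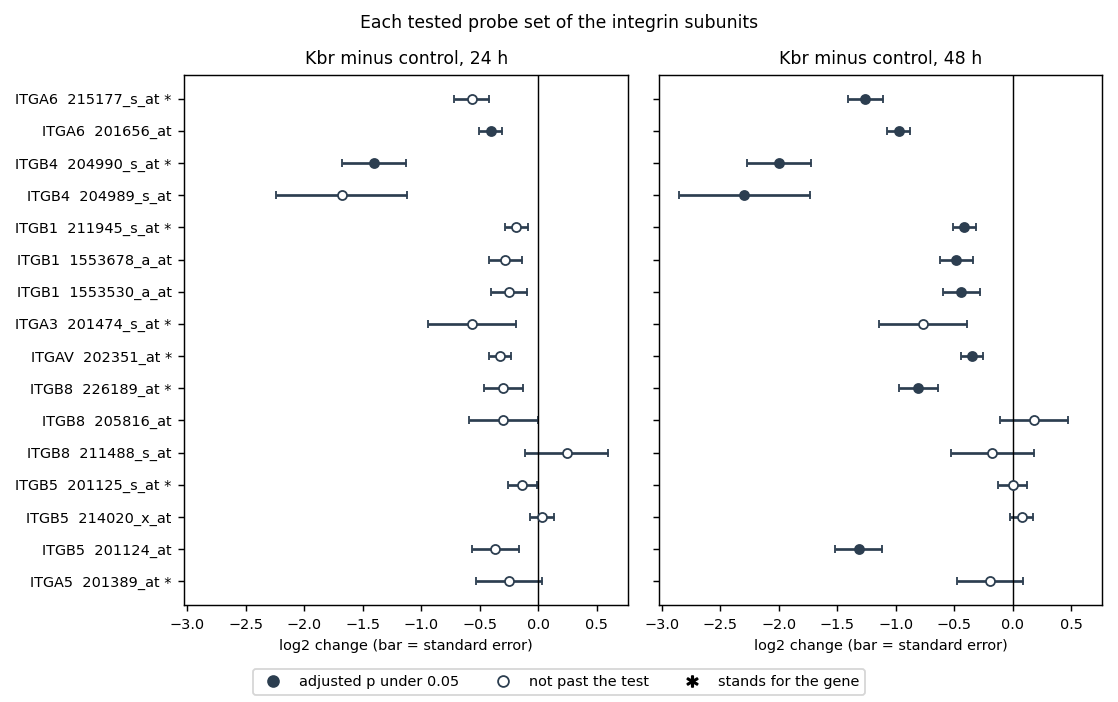
Log2 change in Kbr cells against controls at 24 and 48 h for each of the 16 tested integrin probe sets, grouped by gene, with the standard error from limma as bars; filled points passed the test and an asterisk marks the set that stands for the gene. The ITGB5 and ITGB8 probe sets spread on both sides of 0 at 48 h, whereas both ITGA6 sets and the 3 ITGB1 sets lie on the same side.

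By probe set, 2 of 16 were lower at 24 h (201656_at of ITGA6 and 204990_s_at of ITGB4), beside 3.74% of all tested probe sets called and 1.97% called lower. With the replicate block 8 of 16 were lower, beside 19.1% of all tested probe sets called in either direction. At 48 h 10 of 16 were lower and 0 higher, beside 38.6% called in either direction and 17.5% called lower. These were the 2 sets of ITGA6, 2 of ITGB4, 3 of ITGB1 and 1 each of ITGAV, ITGB8 and ITGB5. Among them, 204989_s_at of ITGB4 passed the filter only through control arrays, so its call is no separate support. It was also among the 8 called with the block at 24 h.

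Start sites of the integrin genes were compared because several members fell together. Of the 10 genes, 8 had a RefSeq window (GRCh38.p14), 13 windows in all; ITGA3 and ITGB4 had none. Shown are the 250 bases before the gene's annotated start and the start base itself, 5′ to 3′ on the gene's strand, for ITGA6, ITGAV and ITGB1, which fell at 48 h, and for ITGA5 and ITGB5, which did not pass the test by their main probe set. The ITGB8 window and the further windows of ITGA6, ITGAV, ITGB1 and ITGB5 lie inside the annotated gene and are not shown. Capitals mark matches to the searched motifs on either strand.
ITGA6 (chr2:172427086-172427336, plus strand): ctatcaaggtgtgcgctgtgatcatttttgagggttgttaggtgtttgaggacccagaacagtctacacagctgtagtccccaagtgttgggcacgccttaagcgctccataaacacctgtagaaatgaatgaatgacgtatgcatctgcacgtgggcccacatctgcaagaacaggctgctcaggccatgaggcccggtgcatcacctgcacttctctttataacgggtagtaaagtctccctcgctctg
ITGAV (chr2:186589806-186590056, plus strand): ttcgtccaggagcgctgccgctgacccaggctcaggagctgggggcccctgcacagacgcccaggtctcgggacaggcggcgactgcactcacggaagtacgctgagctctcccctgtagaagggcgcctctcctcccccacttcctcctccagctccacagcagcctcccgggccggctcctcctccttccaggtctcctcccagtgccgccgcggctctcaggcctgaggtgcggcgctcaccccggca
ITGB1 (chr10:32958230-32958480, minus strand): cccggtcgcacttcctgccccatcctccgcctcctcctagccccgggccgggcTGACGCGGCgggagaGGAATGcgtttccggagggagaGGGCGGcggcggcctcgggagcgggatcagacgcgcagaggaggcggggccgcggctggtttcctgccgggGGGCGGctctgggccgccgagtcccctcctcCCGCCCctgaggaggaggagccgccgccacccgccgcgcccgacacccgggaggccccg
ITGA5 (chr12:54419266-54419516, minus strand): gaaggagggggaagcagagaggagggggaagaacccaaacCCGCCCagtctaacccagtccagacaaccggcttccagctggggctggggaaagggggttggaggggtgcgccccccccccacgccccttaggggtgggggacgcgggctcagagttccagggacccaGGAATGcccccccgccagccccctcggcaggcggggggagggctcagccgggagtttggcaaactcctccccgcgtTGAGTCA
ITGB5 (chr3:124901418-124901668, minus strand): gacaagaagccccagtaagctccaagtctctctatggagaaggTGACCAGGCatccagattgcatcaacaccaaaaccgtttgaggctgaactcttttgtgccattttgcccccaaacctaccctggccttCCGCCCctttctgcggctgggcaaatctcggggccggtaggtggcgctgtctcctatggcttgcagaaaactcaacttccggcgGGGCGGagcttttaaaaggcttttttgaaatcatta
The motifs were the AP-1 site TGANTCA, the antioxidant response element TGACNNNGC, the GC box GGGCGG, the CCAAT box CCAAT and the TEAD site CATTCC, read on both strands. TGANTCA and TGACNNNGC can overlap. Of all 35116 windows of this length, 6.73% held the AP-1 letters, 11.1% the antioxidant response element, 42.7% the GC box, 32.0% CCAAT and 11.9% the TEAD site. Of the windows shown, those of ITGA6 and ITGAV held none of the 5. The ITGB1 window held 1 antioxidant response element, 3 GC boxes and 1 TEAD site. ITGB5 also held an antioxidant response element, with 2 GC boxes. ITGA5 held an AP-1 match ending at the start base, 1 GC box and 1 TEAD site. Among the windows not shown, the second of ITGA6 held 3 GC boxes, that of ITGB8 held 2 GC boxes and 1 CCAAT box, and the second windows of ITGAV and ITGB1 held none. Of the further ITGB5 windows, 1 held 3 GC boxes and the other none of the 5 motifs. The windows of ITGA2 and ITGB6, which were not tested, are not shown either. That of ITGA2 held 4 GC boxes and that of ITGB6 none of the 5 motifs. Of the 4 genes with a window that fell at 48 h, ITGA6, ITGB1 and ITGB8 thus had a GC box in a window and ITGAV had none, and ITGA5 and ITGB5 had it as well. The shares over all windows are per window, whereas some of these genes had more than 1.

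Between 24 and 48 h, 1 of the 8 genes changed in Kbr cells: ITGA6 was lower at 48 h by 0.92 (adjusted p = 0.00613), beside 10.6% of all genes called in that comparison. With the replicate block 4 of 8 were lower, ITGA3, ITGA5 and ITGB1 being added, beside 30.7% of all genes called in either direction. In control cells 0 of 8 were called, beside 3.29% of all genes; limma gave 3 of 8 an unadjusted p under 0.05. With the block 3 of 8 were called, beside 22.5%. ITGA3 was lower with time in controls by 0.55 (adjusted p = 0.423, or 0.0042 with the block) and ITGA5 by 0.64 (0.218, or 0.00255). ITGB8 was higher by 0.58 (0.0782, or 0.0285), while its change with time in Kbr cells was 0.07 (adjusted p = 0.809).

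The 48 h effect was compared with the 24 h effect in an interaction term. None of 8 genes passed, beside 0.141% of all genes; 1 of 8, ITGA6, had an unadjusted p under 0.05. For ITGA6 the 48 h effect was more negative by 0.69 (adjusted p = 0.171), and with the block its adjusted p was 0.0354, beside 7.36% of all genes called. The other 7 did not pass in either fit.

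Among other integrin subunits, ITGAE and ITGB3 rose. Of 16 listed, 5 passed the filter. At 48 h 2 were higher and 0 lower, beside 22% and 20.8% of all genes. At 24 h 0 of 5 were called, or 1 with the replicate block, beside 24.4% of all genes then called. ITGAE, the alpha-E chain known on lymphocytes that bind E-cadherin, read 11.30, 11.37 and 11.77 in Kbr cells at 48 h, against 10.41, 10.30 and 10.76 in controls. It rose by 0.99 (SE 0.17, adjusted p = 0.000938), and its 24 h change was 0.62 (adjusted p = 0.0527, or 0.00237 with the block). Its partner ITGB7 did not pass the filter. ITGB3, another partner of the alpha-V chain, read 10.95, 11.21 and 11.19 in Kbr cells at 48 h, against 10.22, 10.53 and 10.87 in controls. It rose by 0.58 (adjusted p = 0.0362), but the call was lost without Kbr 48 h replicate 2 or 3 or control 48 h replicate 1 or 2 (adjusted p up to 0.138), and also with no filter (0.0869), with the mean of probe sets (0.0515) and with only the groups compared (0.0511). ITGA4, ITGA7 and ITGAL changed by 0.16, -0.06 and -0.02 at 48 h and did not pass.

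Most tested ligands of these receptors were lower at 48 h. Of 24 tested matrix ligands, 6 were lower and 0 higher at 24 h, and 16 were lower and 1 higher at 48 h, beside 3.25% of all genes lower at 24 h, and 20.8% lower and 22% higher at 48 h, with a median log2 change of -0.34 and -0.88. With the replicate block 12 were lower at 24 h, beside 14% of all genes lower. At 48 h it gave 17 lower and 2 higher, beside 28.8% of all genes lower and 57.5% called in either direction. LAMA5 and LAMC1, chains of the laminins bound by alpha-3 and alpha-6 receptors, fell by 1.34 (SE 0.14, adjusted p = 8.48e-05) and 0.89 (SE 0.098, adjusted p = 0.000124) at 48 h. COL1A1, a collagen I chain, fell by 2.06 (adjusted p = 7.34e-05) and TNC, the matrix glycoprotein tenascin-C, by 1.19 (adjusted p = 0.000127). COL4A4, a basement membrane collagen chain, was lower by 2.12 (adjusted p = 2.82e-05), but its Kbr mean of 3.05 was below the floor while controls averaged 5.16 ± 0.42 (SD, n = 3). COL4A4, counted among the 16 lower, passed the filter only through the 3 control arrays at 48 h, so its call is not independent of the filter. When probe sets were averaged the 48 h change was smaller, -0.68 for COL1A1 and -0.42 for TNC, both still past the test. At 24 h the changes were -0.64 for LAMA5 (adjusted p = 0.0253), -0.42 for LAMC1 (0.0348), -1.30 for COL1A1 (0.00889) and -0.81 for TNC (0.00963); with the mean of probe sets they were -0.44 for COL1A1 and -0.47 for TNC. The one ligand that was higher at 48 h, named after its values were seen, was CCN2, a matricellular protein, at 11.13 ± 0.40 in Kbr cells and 9.75 ± 0.33 in controls (SD, n = 3 each).

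Without the replicate block, genes for proteins at the receptors' tails were called lower at about the rate of all genes. Of 28 tested tail activators, adaptors and kinases, 1 was lower at 24 h (KANK2, by 0.59, adjusted p = 0.0488) and 6 at 48 h, and 0 were higher, beside 3.25% and 20.8% of all genes called lower and 22% called higher at 48 h. Their median log2 changes were -0.16 and -0.14. With the replicate block 9 of 28 were lower at 24 h, above the 14% of all genes then called lower. At 48 h it gave 10 lower and 3 higher, beside 28.8% of all genes lower and 57.5% called in either direction. PTK2, the focal adhesion kinase, fell by 0.48 at 48 h (adjusted p = 0.00118), KANK2, which binds talin, by 1.16 (adjusted p = 0.000282), and the tensins TNS2 and TNS3 by 1.78 (adjusted p = 0.00952) and 1.11 (adjusted p = 0.00458). With the mean of probe sets the 48 h changes were -0.26 for PTK2, -0.45 for KANK2 and -0.55 for TNS3, still past the test, and KANK2 missed the threshold at 24 h (-0.23, adjusted p = 0.13). Of 5 tested genes of latent TGF-beta, 0 were called at 24 h and 2 were lower at 48 h; with the block 3 and 4 were lower. Over all genes 20.8% were lower at 48 h, and with the block 14% were lower at 24 h and 28.8% at 48 h. Those called without the block were LTBP2, a latent TGF-beta binding protein, by 1.65 (adjusted p = 0.00131) and TGFB2, a TGF-beta ligand, by 0.92 (adjusted p = 0.00543). With the mean of its probe sets TGFB2 changed by -0.31 and missed the threshold (adjusted p = 0.317).

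Of 10 tested hemidesmosome and tetraspanin partners, 1 was lower at 24 h and 2 were lower and 1 higher at 48 h, beside 3.25% of all genes lower at 24 h, and 20.8% lower and 22% higher at 48 h, so the counts lower at 48 h stood at the rate of all genes. With the block 2 were lower and 1 higher at 24 h, and 4 lower and 1 higher at 48 h. Over all genes the block gave 14% lower at 24 h and 28.8% lower at 48 h, and 24.4% and 57.5% called in either direction. DST, whose epithelial isoform links alpha-6 beta-4 to keratin, was lower by 0.39 at 24 h (adjusted p = 0.0454) and 0.54 at 48 h (adjusted p = 0.00166), but with the mean of its probe sets DST changed by -0.11 (adjusted p = 0.565) and -0.05 (adjusted p = 0.73). CD9, a tetraspanin that binds integrins, fell by 1.56 at 48 h (adjusted p = 0.00147), and by the mean of its probe sets the change was -0.52 (adjusted p = 0.00377). SLC3A2, the heavy chain of amino acid transporters and a partner of beta chain tails, rose by 2.52 (adjusted p = 0.000878). At 24 h LAMA5 and LAMC1 were called in 7 of the 12 fits that left out an array, KANK2 and DST in 3, TNC in 11 and COL1A1 in 12.

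**Figure D4:**
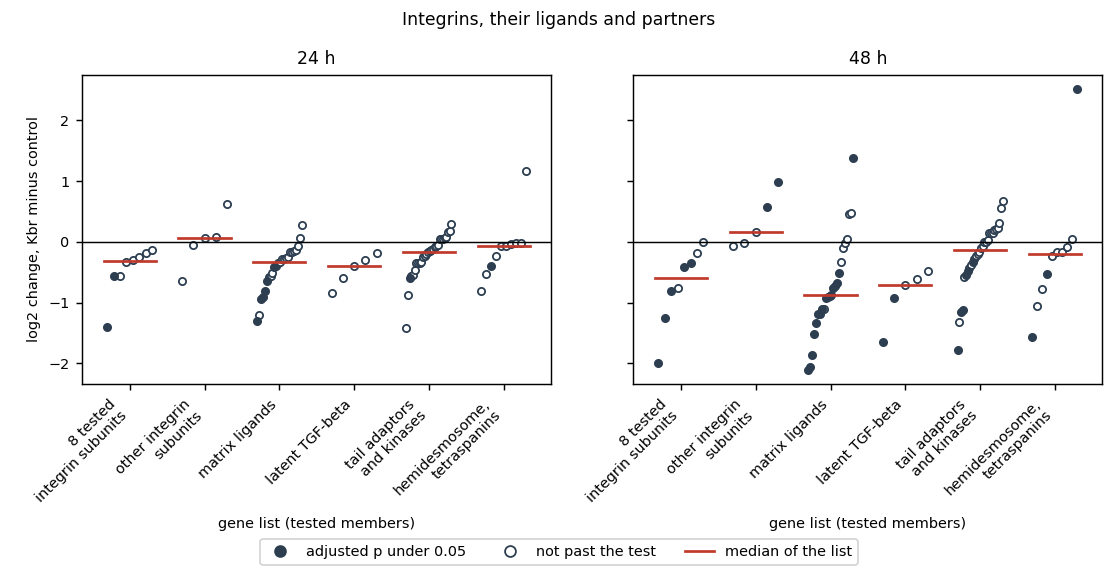
Log2 change in Kbr cells against controls at 24 and 48 h for each tested gene of the integrin set and of the ligand and partner lists, 1 point per gene, filled where it passed the test, with the list median as a line. At 48 h the 8 tested integrin subunits have a median of -0.59, the 24 matrix ligands -0.88 and the 28 tail proteins -0.14.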

How the data were processed

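HK-2 cells were profiled on 12 Affymetrix arrays, 3 biological replicates in each of 4 groups taken from the labels. The deposited log2 values were made by the authors with GCRMA, per the submitters' processing notes, which subtracts a probe-sequence background, so that weak probe sets sit at a floor; its version is not given in the sources used here. Whether replicates came from separate cultures is not described beyond that label, so p-values measure the spread between these samples. The arrays' number limits the precision.

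Probe sets with 1 annotated symbol were used, and the one with the highest mean stood for a gene. Genes above a log2 value of 4 on at least 3 arrays were tested. Group means over all 12 arrays were fitted with limma 3.58.1 (lmFit, eBayes) in R 4.3.3, with Benjamini-Hochberg adjusted p-values over all genes, or over all probe sets, at a threshold of 0.05. An exact test of 3 against 3 arrays could not go below 0.1. The fit without the replicate block was tested on simulated data with independent noise on each array. Those data held no shared effect of replicate number, so they do not test either fit under the pairing described next.

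Replicate numbers come from the labels. Deviations from group means correlated at 0.279 to 0.701 in 18 same-number pairs and -0.454 to -0.061 in 36 different-number pairs. Of the arrays, 12 of 12 matched their own number best. Counts with the number as a block are therefore given, with values for some of the genes and probe sets whose call it changed.

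Named were the 10 members with their probe sets, every other integrin subunit past the filter, up to 4 called genes per list with the smallest p at each time, and the 3 nearest profiles to the members of largest rise and fall. Members and lists were chosen with earlier results of these data known. Alternatives were the block, no filter, a floor of 6, quantile normalization once more, centring arrays on their median, averaging a gene's probe sets, fitting the compared groups alone, a variance that follows intensity with robust settings, and each array left out.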

Additional observations from a re-analysis of the deposited data

Results flagged for a closer look

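ITGA6 was the only tested member whose 48 h effect differed from its 24 h effect in the fit with the replicate block. The difference between the times was -0.69 by probe set 215177_s_at, with an adjusted p of 0.0354 over genes and 0.045 over probe sets. The second ITGA6 probe set, 201656_at, had an adjusted p of 0.0411 in the same fit. Without the block the difference over genes had an adjusted p of 0.171. Groups of 3 arrays are too small for a check of single outlying arrays.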

How the results depend on the processing

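The 5 integrin genes lower at 48 h stayed so in all 12 fits leaving out an array (5 to 5), and 8 to 10 probe sets did. With the mean of probe sets 3 genes were called at 48 h, fewer because ITGB4 no longer passed the filter and ITGB1 and ITGB8 missed the threshold, while ITGB5 was lower. At 24 h the 2 genes became 4 with the replicate block and 1 with no filter, with repeated quantile normalization or with only the groups compared, and 0 to 2 when an array was left out. The 2 probe sets at 24 h became 8 with the block, 1 with no filter, with the array median subtracted or with only the groups compared, and 0 to 2 when an array was left out. For the difference between times, calls went to 1 gene and 2 probe sets with the block, and stayed at 0 to 0 when an array was left out. In controls between times they went to 3 genes and 4 probe sets with the block, and 0 to 1 genes and 0 to 0 probe sets when an array was left out. In Kbr cells between times 1 gene became 4 with the block, 2 with an intensity trend, 0 with only the groups compared, and 1 to 2 when an array was left out. The replicate block moved neither 48 h count of integrin calls by over 1.5 times (6 genes and 11 probe sets). Shares of all genes called with the block stand in the sections above, and for probe sets only that at 24 h (19.1%). For the other settings no share of all genes or probe sets is given. Whether those counts moved with the whole array therefore cannot be read from them.

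Signs turned only in small changes that were not called in the main test. Repeated quantile normalization gave ITGB5 -0.058 and ITGAL 0.022 at 48 h, ITGAV 0.0055 for the difference between times, and ITGB1 0.0072 and ITGB4 0.016 in controls between times. The mean of probe sets gave ITGB5 -0.30 at 48 h and -0.21 for the difference. Leaving out an array gave at 24 h -0.098 to 0.022 for ITGA7 and -0.090 to 0.24 for ITGB3, and at 48 h -0.42 to 0.0072 for ITGA5, -0.084 to 0.16 for ITGB5, -0.10 to 0.29 for ITGA4 and -0.032 to 0.0095 for ITGAL. For the difference it gave -0.46 to 0.13 for ITGA3, -0.19 to 0.27 for ITGA5 and -0.071 to 0.049 for ITGAV; in controls between times -0.21 to 0.26 for ITGB4; and in Kbr cells between times -0.23 to 0.012 for ITGB5 and -0.072 to 0.25 for ITGB8. The causes were not tested. Restriction to the groups compared was not run for the difference between times. Values near the floor of 4 have no reliable size.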

Other observations

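The 4 probe sets annotated with both LINC02478 and ITGB6 cannot be assigned to either gene here, so their values are given with no test. The one with the largest change at 48 h, 226535_at, read 6.31, 6.06 and 6.99 in Kbr cells at 24 h, against 7.80, 7.35 and 7.95 in controls. At 48 h it read 3.44, 5.37 and 4.19 in Kbr cells, against 7.64, 7.24 and 7.53 in controls. The mean change was -1.25 at 24 h and -3.14 at 48 h, and in both comparisons the Kbr arrays were below all controls. Of the others, 208083_s_at changed by -1.34 at 24 h and -1.52 at 48 h, and 208084_at by -1.44 and -0.54; their Kbr means lay below the floor of 4. The last, 239517_at, averaged 7.82 in Kbr cells and 8.25 in controls at 24 h, and 7.88 in Kbr cells and 8.30 in controls at 48 h, so it changed by -0.43 and -0.42.

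Over the 12 arrays, the tested genes whose centred log2 profile was nearest to that of ITGB4, the member with the largest fall, were IDH1-AS1 (root mean square difference 0.21), TM7SF2 (0.294) and HSD17B8 (0.301). For ITGB5, which had the highest 48 h change of the members although it was near 0 and not called, they were HMGXB4 (0.0737), RPA1 (0.0779) and IWS1 (0.0791).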
